A study of Mus musculus with 4 samples.

Results

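The S100 genes encode small calcium-binding proteins, and 10 of them were read here in mouse skin RNA: S100a8, S100a9, S100a4, S100a6, S100a10, S100a11, S100a13, S100a14, S100a16 and S100a3. They were taken by symbol from a table of 25571 genes, and each symbol occurred once. The study has 4 skin libraries of mice, 1 for each of the groups NC, PRP, MNs and PRP-MNs. PRP is platelet-rich plasma, a blood fraction rich in platelets and their growth factors, and MNs are microneedles, patches of tiny needles that pierce the outer skin. The PRP-MNs group combined them, PRP and MNs each had 1 of them by name, and NC, which the labels do not spell out, was the reference. The sources used here do not give strain, age, sex, dose, time of harvest, the source of the platelet-rich plasma or the number of animals behind each library.

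S100 proteins pair up and change shape when they bind calcium, which exposes a surface that grips partner proteins such as annexins and the cytoskeleton. Some are also released from cells, and S100A8 and S100A9 then act as alarmins, danger signals that reach Toll-like receptor 4 and the receptor RAGE and draw in leukocytes. Neutrophils and monocytes store these alarmins, and keratinocytes make them in wounded or inflamed skin. Most S100 genes lie in the epidermal differentiation complex, a chromosomal region that also holds the genes of the cornified envelope.

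Values were FPKM, that is, fragment numbers divided by transcript length and by the fragments of the library, so that levels of different genes can be set side by side. From the steps between low values the depth was put at 15.9 M to 19.4 M fragments per library, and 3 fragments on a transcript of 1 kb came to between 0.155 and 0.189 FPKM. Finer steps matched slightly more of the low values, and would put the depth at 31.8 M to 38.65 M and those 3 fragments at 0.0776 to 0.0945 FPKM. These limits cover counting error only. Differences are log2 of the ratio of FPKM + 1, and a gene was tested where at least 1 of the 2 libraries held 1 FPKM or more and called when it passed 2-fold. With 1 library per group there is no spread between animals and no test, so neighbouring levels in an order cannot be called different from each other, and each value describes these libraries. The 3 treated libraries share NC as their reference. Fewer cells of a type and less RNA per cell cannot be told apart in such bulk tissue. Keratins of the epidermis were abundant in every library, with Krt14 between 2055 and 3966 FPKM and Krt5 between 689 and 2348 FPKM, so the defining keratins of skin were present.

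The alarmin genes were high in PRP-MNs and low in MNs. S100a8 stood at 62.8 FPKM in NC, 107 in PRP, 41.1 in MNs and 205 in PRP-MNs. S100a9, whose protein pairs with S100A8 to form calprotectin, stood at 163, 269.7, 106 and 626 FPKM in the same order of libraries. Both genes thus had one order of levels, PRP-MNs, PRP, NC and MNs, with the library of microneedles alone below the reference. The highest library exceeded the lowest 4.99 times for S100a8 and 5.88 times for S100a9, the widest ranges among the 9 members that reached 10 FPKM.

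The ratio of S100a9 to S100a8, which does not depend on how a library is scaled, was 2.59 in NC, 2.53 in PRP, 2.59 in MNs and 3.05 in PRP-MNs. Their levels thus moved together, with the ratio highest in PRP-MNs. On GRCm38, S100a8 (ENSMUSG00000056054) lies on chromosome 3 from 90668978 to 90670035 on the plus strand, and S100a9 (ENSMUSG00000056071) from 90692632 to 90695721 on the minus strand, so that the 2 genes point toward each other. No other annotated gene overlaps either of them in GENCODE M21.

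Because these 2 genes kept a common order of levels, the DNA before their starts is shown, beside that of S100a4, a member with another order. The sequences are those of RefSeq for GRCm38.p6, 5′ to 3′ on the strand of the gene. Of the 10 members, 8 had an entry. Capitals mark matches, on either strand, to the TATA box TATAAA, the AP-1 motif TGANTCA, the C/EBP motif TTGCNNAA and the RUNX motif TGTGGT. For S100a8 the stretch from 250 to 94 bases before the RefSeq start is given, with 30 bases around its TATA box, because GENCODE places the start of the gene further upstream than RefSeq. For S100a9 and S100a4 the 250 bases before the start are given.
S100a8 (chr3:90668821-90668977, plus strand): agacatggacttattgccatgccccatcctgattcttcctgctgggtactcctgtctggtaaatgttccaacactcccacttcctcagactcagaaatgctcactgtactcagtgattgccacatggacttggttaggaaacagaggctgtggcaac
S100a8 at its TATA box (chr3:90669031-90669060, plus strand): agctttcctcTATAAAagcagctgacactt
S100a9 (chr3:90695722-90695971, minus strand): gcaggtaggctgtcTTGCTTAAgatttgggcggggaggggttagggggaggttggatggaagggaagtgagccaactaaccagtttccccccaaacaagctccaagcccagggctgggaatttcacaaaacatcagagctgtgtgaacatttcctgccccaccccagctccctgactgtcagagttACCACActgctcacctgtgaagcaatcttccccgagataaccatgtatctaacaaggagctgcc
S100a4 (chr3:90603520-90603769, plus strand): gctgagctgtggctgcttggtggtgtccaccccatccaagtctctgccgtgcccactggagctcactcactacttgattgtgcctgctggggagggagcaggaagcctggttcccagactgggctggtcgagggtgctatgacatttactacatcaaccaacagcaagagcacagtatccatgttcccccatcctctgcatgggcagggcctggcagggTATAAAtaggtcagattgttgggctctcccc

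In the 250 bases before its RefSeq start, S100a8 held 1 of the motifs, the TATA box, from 30 to 25 bases before the start. S100a9 held a C/EBP match from 236 to 229 bases and a RUNX match from 64 to 59 bases before its start, so the alarmin genes shared none of the motifs in these windows. S100a4 held a TATA box from 31 to 26 bases before its start and no other match. Among 32851 promoters of the same length, 12.4% held the TATA box, 9.56% the C/EBP motif, 14.05% the RUNX motif and 6.75% the AP-1 motif. A match is a description of letters, not a binding site.

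**Figure D1:**
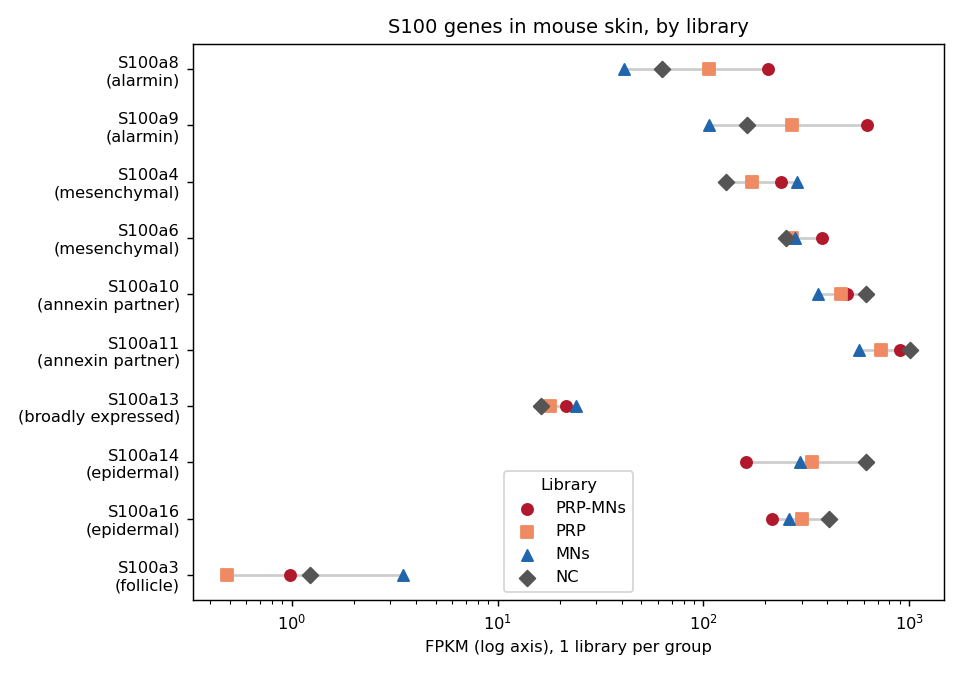
FPKM of the 10 S100 genes on a log axis, with 1 point per library and a grey line from the lowest to the highest of the 4 libraries. The alarmins S100a8 and S100a9 run from MNs to PRP-MNs, S100a14 and S100a16 run from PRP-MNs to NC, and S100a3 lies between 0.48 and 3.48 FPKM, far below the others.

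In PRP-MNs against NC, a comparison of the combined treatment with the reference, S100a8 differed by 1.69 and S100a9 by 1.94 on the log2 scale, and both were at least 2-fold higher. Past 2-fold were 17.6% of all 13981 genes tested in the higher direction and 11.5% in the lower one, so the 2 higher and the 1 lower of the 10 members stand near that background. The median difference was 0.11 over the members and 0.14 over all genes tested. Among all genes tested, 91.5% had a lower difference than S100a8 and 93.3% a lower one than S100a9. The wider range of the alarmins lay between PRP-MNs and MNs, where S100a8 differed by 2.29 and S100a9 by 2.54. There 7.16% of 13933 genes tested were at least 2-fold higher and 7.39% lower, and 98.6% of genes had a lower difference than S100a8 and 99.0% a lower one than S100a9.

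PRP-MNs against PRP, which differ by microneedles in name, gave log2 differences of 0.94 for S100a8 and 1.21 for S100a9. Here S100a9 was the only member at least 2-fold higher, and 9.54% of 13861 genes tested were. With every library rescaled to the same FPKM sum, S100a8 also passed, at 1.05. PRP against NC gave 0.75 for S100a8 and 0.73 for S100a9, so that no member passed 2-fold there, where 7.78% of 13533 genes tested were at least 2-fold higher and 1.46% lower. MNs against NC gave -0.60 for S100a8 and -0.61 for S100a9.

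The mean difference of the 2 alarmins minus that of the other 8 members, which rescaling a library leaves almost unmoved, was 2.02 in PRP-MNs against NC and 2.56 in PRP-MNs against MNs. It was 1.00 in PRP against NC, 1.01 in PRP-MNs against PRP and -0.55 in MNs against NC. Over all members tested the median difference was -0.16 in PRP against NC, -0.60 in MNs against NC, 0.30 in PRP-MNs against PRP and 0.13 in PRP-MNs against MNs, where that of all genes was 0.04, 0.16, 0.08 and -0.02. The mean of the alarmins therefore stood above that of the other 8 members in every comparison except that of microneedles alone with the reference.

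The alarmin genes and the neutrophil genes Csf3r and Retnlg were all highest in PRP-MNs, but differed in direction in MNs against NC. Csf3r, the receptor for the neutrophil growth factor G-CSF, was at 0.74 FPKM in NC, 10.1 in PRP, 15.9 in MNs and 89.5 in PRP-MNs. MNs thus exceeded NC for Csf3r but was below NC for S100a8. The ratio of S100a8 to Csf3r was 85.3 in NC, 10.5 in PRP, 2.58 in MNs and 2.29 in PRP-MNs. That in NC rests on a Csf3r level below 1 FPKM. Retnlg, a resistin-like gene of neutrophils, gave ratios of 54.5, 18.1, 7.98 and 8.23 in the same order.

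Over the whole neutrophil list of 12 genes, 4 were at 1 FPKM or more in NC, 5 in PRP, 6 in MNs and 7 in PRP-MNs. The list summed to 18.3, 111, 107 and 294 FPKM in the same order. In PRP and MNs most of the sum was Lcn2. It was at 5.65 FPKM in NC, 74.6 in PRP, 64.03 in MNs and 72.9 in PRP-MNs. Lcn2 thus had its highest level in PRP, and the sums do not rank PRP and MNs for the other listed genes. Relative to NC, 7 of the 7 genes tested exceeded 2-fold in the higher direction in PRP-MNs, 3 of 5 in PRP and 4 of 6 in MNs, where 17.6%, 7.78% and 15.7% of all genes tested did. Csf3r, Mmp8 and Ly6g were below 1 FPKM in NC, so they could enter only through a treated library that was higher. They make up 3 of the genes tested in PRP-MNs, and Csf3r is 1 of those in PRP and with Mmp8 2 of those in MNs. The granule genes of immature neutrophils were near 0: Mpo was listed at 0 in PRP-MNs, PRP and NC, Elane in PRP, MNs and NC, and Ngp and Camp stayed below 0.5 FPKM everywhere. Ly6g, a surface marker of mouse neutrophils, was listed at 0 for NC and PRP, and reached 0.06 FPKM with MNs and 1.19 FPKM with PRP-MNs.

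Monocytes and macrophages also express the alarmins. Their 8 listed genes summed to 209 FPKM in NC, 926 in PRP, 783 in MNs and 2639 in PRP-MNs, and none was at 0. Wound-edge keratinocyte genes, 6 in the list, summed to 2803, 3789, 3255 and 4292 FPKM, in the same order. These genes did not share an order. In MNs against NC, Krt6a differed by 0.88, Krt6b by 0.21, Krt17 by 0.13 and Krt16 by -0.09. Sprr1b differed by -0.89, going from 401 to 216 FPKM. Il24 differed by 3.01, from 0.13 FPKM in NC to 8.12 in MNs, and was tested there only through MNs. The ratio of S100a8 to Krt6a, a keratin of activated keratinocytes, was 0.0971 in NC, 0.115 in PRP, 0.0346 in MNs and 0.155 in PRP-MNs. The ratios of S100a8 to Krt6a and to Retnlg were both lowest in MNs, and its ratio to Csf3r was lowest in PRP-MNs. The part of each cell type in the alarmin levels was not tested.

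**Figure D2:**
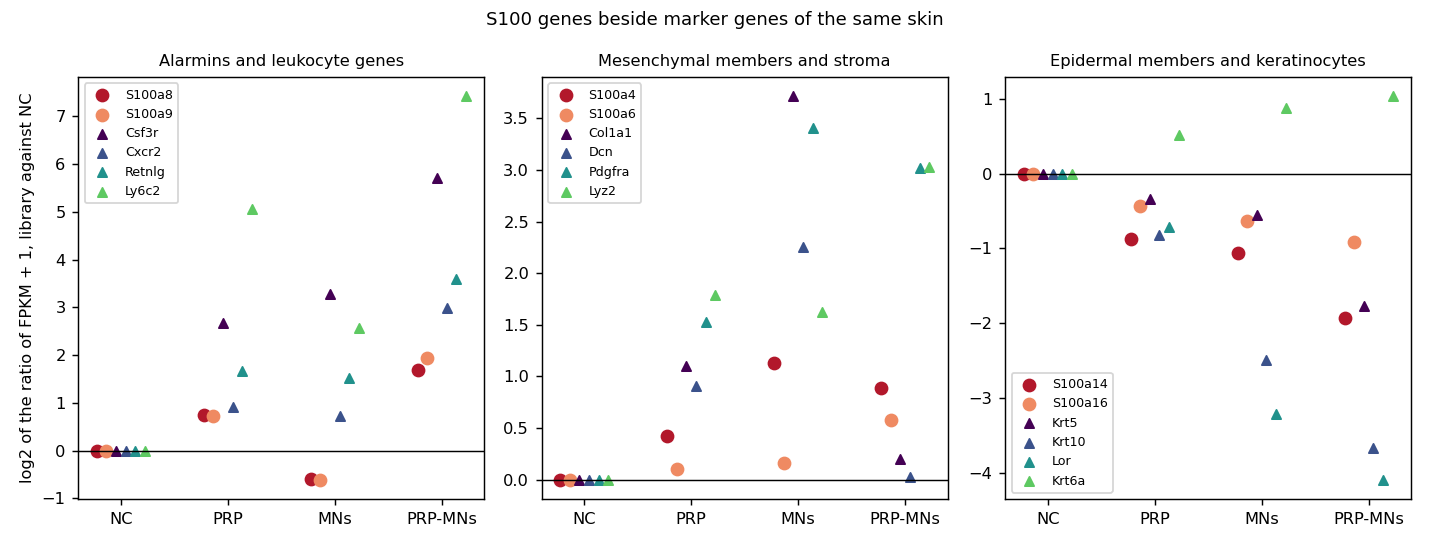
Log2 of the ratio of FPKM + 1 of each library against NC for S100 genes (circles) and marker genes (triangles), in 3 panels with their own axes. In MNs the alarmins lie below 0 while all 4 leukocyte genes lie above it, and S100a14 and S100a16 are below 0 in the 3 treated libraries.

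Mesenchymal members were lowest in NC. S100a4, a gene of fibroblasts and macrophages whose protein binds non-muscle myosin, was at 129 FPKM in NC, 173 in PRP, 283 in MNs and 239 in PRP-MNs. MNs was the highest library and PRP-MNs stood at 84.3% of it. In MNs against NC the log2 difference of S100a4 was 1.13, at least 2-fold higher, and it was 0.97 when differences were centred on the median of all genes. Against NC it was 0.89 in PRP-MNs and 0.42 in PRP, and 1.05 in PRP-MNs when every library was rescaled to the same FPKM sum. PRP-MNs against MNs gave -0.25, and PRP-MNs against PRP 0.46.

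In MNs against NC, 15.7% of 13925 genes tested were at least 2-fold higher and 7.12% lower, or 2188 and 991 genes, and 1729 and 1261 after centring. The 2 higher members there were S100a4 and S100a3, and the lower one was S100a14. With the pseudocount of 1 FPKM all 3 lay close to 2-fold, though the plain ratio of S100a3 was 2.85.

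S100a6, or calcyclin, a gene of dividing fibroblasts and epithelial cells, was at 250 FPKM in NC, 268 in PRP, 280 in MNs and 375 in PRP-MNs. PRP-MNs was highest and the remaining 3 libraries lay within a narrow range. The log2 difference of S100a6 from NC was 0.58 in PRP-MNs, 0.10 in PRP and 0.16 in MNs, the last of which was -0.00 after centring. S100a6 differed by 0.48 between PRP-MNs and PRP and by 0.42 between PRP-MNs and MNs. The mesenchymal genes thus parted in MNs, where the ratio of S100a4 to S100a6 was 1.01, against 0.636 in PRP-MNs, 0.644 in PRP and 0.514 in NC.

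Fibroblast and macrophage genes did not keep one order of libraries. The 7 listed fibroblast genes summed to 952 FPKM in NC, 1959 in PRP, 7387 in MNs and 1039 in PRP-MNs, so that MNs stood apart. All 7 were at least 2-fold higher in MNs than in NC, 5 in PRP and 1 in PRP-MNs, beside 15.7%, 7.78% and 17.6% of all genes tested. Col1a1, a chain of type I collagen, spanned 120 FPKM in NC to 1589 FPKM in MNs, a far wider range than that of S100a4. Lyz2, a lysozyme gene of macrophages and neutrophils, ran from 161 FPKM in NC to 1326 FPKM in PRP-MNs, where S100a4 was second highest. Only Pdgfra among the listed fibroblast genes and Csf1r among the listed macrophage genes had the order of S100a4. Pdgfra was at 4.75 FPKM in NC, 15.6 in PRP, 59.8 in MNs and 45.6 in PRP-MNs. Csf1r was at 15.8, 28.9, 46.0 and 39.3 FPKM in the same libraries. The part of either cell type in the level of S100a4 was not tested.

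S100a13, a broadly expressed member whose protein takes part in the release of FGF1 and interleukin-1 alpha without a signal peptide, had the order of S100a4 at a lower level. It was at 16.2 FPKM in NC, 18.0 in PRP, 24.1 in MNs and 21.5 in PRP-MNs. Its difference from NC was 0.39, 0.14 and 0.55 in PRP-MNs, PRP and MNs, within 2-fold throughout. S100a13 starts 43 bases from its neighbour S100a1 on the opposite strand, and the sources used here do not say whether strands were kept apart in counting.

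The genes of the annexin partners were abundant in every library and highest in NC. S100a11, whose protein binds annexin A1 and takes part in keratinocyte growth control, was at 1010 FPKM in NC, 728 in PRP, 571 in MNs and 897 in PRP-MNs. It was the top member in each of the 4 libraries. S100a10, or p11, which binds annexin A2 at the cell membrane, was at 619 FPKM in NC, 464 in PRP, 359 in MNs and 500 in PRP-MNs. Both genes had the order NC, PRP-MNs, PRP and MNs.

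Neither gene passed 2-fold in any of the 5 comparisons. S100a10 differed from NC by -0.31 in PRP-MNs, -0.42 in PRP and -0.78 in MNs, and S100a11 by -0.17, -0.47 and -0.82. In PRP-MNs against MNs they were higher by 0.48 and 0.65. The ratio of S100a10 to S100a11 stayed between 0.557 in PRP-MNs and 0.637 in PRP. They lie close together, S100a11 (ENSMUSG00000027907) from 93520488 to 93526287 and S100a10 (ENSMUSG00000041959) from 93555080 to 93564643 on chromosome 3. Before its start S100a11 held 2 AP-1 matches, each TGAGTCA, from 136 to 130 and from 38 to 32 bases. S100a10 had no entry in the promoter table.

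The epidermal members were lower in all 3 treated libraries than in NC. S100a14, a gene of surface epithelia, was at 615 FPKM in NC, 336 in PRP, 294 in MNs and 161 in PRP-MNs. NC was far above the rest and PRP-MNs was the lowest, 3.83 times below NC. S100a16, an epithelial member that other tissues also express, was at 405, 301, 260 and 216 FPKM in the same order. It shared the order NC, PRP, MNs and PRP-MNs with S100a14 over a narrower range of 1.88 times.

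S100a14 was the one member at least 2-fold lower in PRP-MNs than in NC, with a log2 difference of -1.93, and 3.70% of genes tested had a lower one. S100a16 differed by -0.91 there and by -1.05 after centring. In MNs against NC, S100a14 differed by -1.06, which became -0.86 with the same FPKM sum in every library. PRP-MNs against PRP gave -1.06 for S100a14, or -0.94 with the same sum, where 7.50% of genes tested were at least 2-fold lower. In PRP against NC S100a14 differed by -0.87 and S100a16 by -0.43, and in PRP-MNs against MNs by -0.87 and -0.27.

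Genes of differentiated keratinocytes were lower in the same libraries. The 6 in the list summed to 18972 FPKM in NC, 9964 in PRP, 3498 in MNs and 1517 in PRP-MNs. All 6 were at least 2-fold lower than in NC in PRP-MNs and in MNs, and 1 was in PRP, beside 11.5%, 7.12% and 1.46% of all genes tested. Basal keratinocyte genes summed to 6623, 5810, 5180 and 2896 FPKM, and 3 of 6 were more than 2-fold lower in PRP-MNs. The order of S100a14, NC, PRP, MNs and PRP-MNs, was that of both sums. Among the basal genes Krt5, Krt14, Trp63 and Col17a1 had it, and Itga6 and Itgb4 did not. Itga6 was at 61.3 FPKM in NC, 64.7 in PRP, 62.7 in MNs and 61.2 in PRP-MNs. Itgb4 was at 28.0, 26.7, 32.2 and 21.6 FPKM in the same libraries. The ratio of S100a14 to the basal keratin Krt5 stayed between 0.182 in PRP and 0.262 in NC, whereas its ratio to the suprabasal keratin Krt10 was 0.102 in NC, 0.0979 in PRP, 0.272 in MNs and 0.338 in PRP-MNs. The part of these cells in the levels of S100a14 and S100a16 was not tested.

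S100a3, a gene of the hair cuticle, was the lowest member, at 1.22 FPKM in NC, 0.48 in PRP, 3.48 in MNs and 0.98 in PRP-MNs. On its coding transcripts of 509 to 712 bases these levels correspond to about 12.0 to 16.8 fragments in NC, 3.92 to 5.48 in PRP, 32.9 to 46.0 in MNs and 8.58 to 12.0 in PRP-MNs. The finer steps would give 24.0 to 33.6 in NC, 7.82 to 10.9 in PRP, 65.7 to 92.0 in MNs and 17.1 to 23.9 in PRP-MNs. Only MNs stood clear of the other libraries, and PRP held the fewest fragments. The log2 difference of S100a3 was 1.01 in MNs against NC and -1.18 in PRP-MNs against MNs. At these low levels both depend on the pseudocount: they were 1.44 and -1.73 with 0.1 FPKM in place of 1, and 0.45 and -0.50 with 5 FPKM, which lies above all 4 levels. The plain ratios were 2.85 for MNs over NC and 3.56 for MNs over PRP-MNs. The first difference was 0.85 after centring.

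S100a3 differed by -0.17 in PRP-MNs against NC and by -0.58 in PRP against NC, the latter being -1.18 with a pseudocount of 0.1. In PRP-MNs against PRP it was below 1 FPKM in both libraries, so 9 of the 10 members were tested there and all 10 in the other comparisons, S100a3 passing through NC or MNs alone. Hair shaft genes were close to absent: of the 7 measured here out of 8 listed, only Krt84 reached 1 FPKM in any library, at 5.47 FPKM in NC and 2.49 FPKM in PRP. The summed level of the list was 5.94 FPKM in NC, 2.77 in PRP, 1.81 in MNs and 0.67 in PRP-MNs, most of it Krt84 in NC and PRP. Without Krt84, the other 6 genes summed to 0.47 FPKM in NC, 0.27 in PRP, 1.58 in MNs and 0.23 in PRP-MNs. Each had its highest listed value in MNs, but some of these were near ties. Krt86 was at 0.231 FPKM in MNs and 0.226 in PRP-MNs, and Padi3 at 0.171 in MNs and 0.169 in NC. All 6 were below 1 FPKM everywhere, too low to rank the libraries. The part of hair shaft cells in the level of S100a3 was not tested. The annotated span of S100a3 on chromosome 3, 90560578 to 90602702, holds S100a2 and overlaps the predicted gene Gm42674, which also overlaps S100a4. S100a2 and Gm42674 were listed at 0 in every library, and the sources used here do not say how fragments shared by these genes were assigned.

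**Figure D3:**
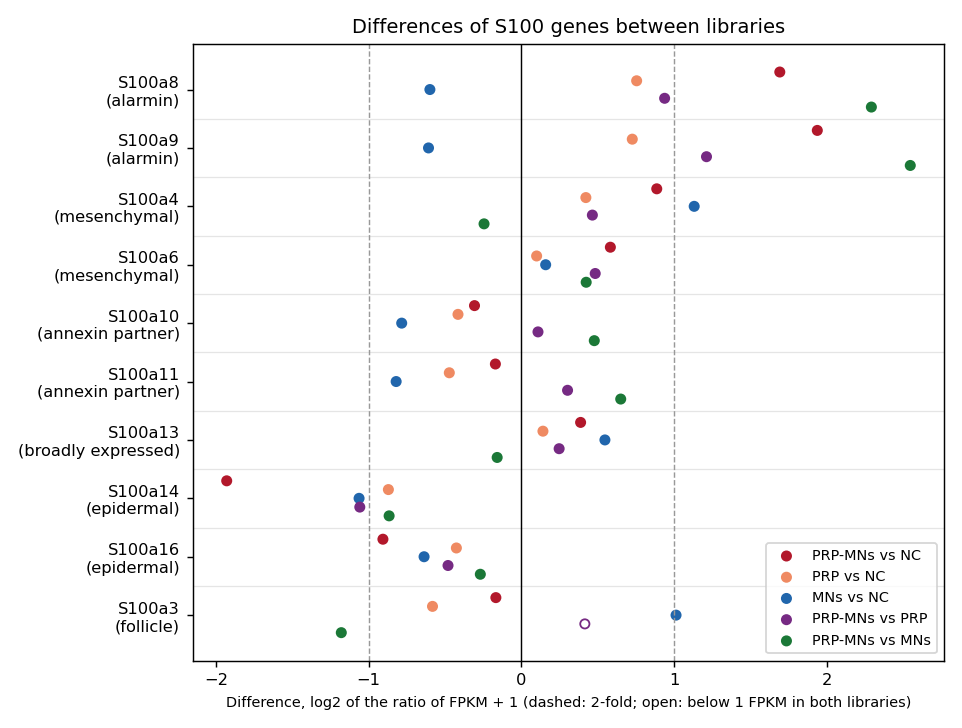
Log2 of the ratio of FPKM + 1 for each S100 gene in the 5 comparisons, with dashed lines at 2-fold and an open circle where a gene was below 1 FPKM in both libraries. S100a8 and S100a9 lie farthest to the right in PRP-MNs against MNs, at 2.29 and 2.54, and S100a14 farthest to the left in PRP-MNs against NC, at -1.93.

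Along chromosome 3, S100 genes of either sign were found in PRP-MNs against NC. From S100a1 to S100a9 the genes lie within 184.7 kb, and this stretch held the member with the lowest difference between PRP-MNs and NC (S100a14) as well as those with the highest (S100a8 and S100a9). S100a14 (ENSMUSG00000042306) spans 90526856 to 90528837 and is followed by S100a16 (ENSMUSG00000074457) from 90537254 to 90543151, both lower in PRP-MNs. S100a4 (ENSMUSG00000001020) from 90603771 to 90606045 and S100a6 (ENSMUSG00000001025) from 90612882 to 90624181 were both higher but within 2-fold. S100a11 and S100a10, the pair farther along, were both lower and within 2-fold. The stretch as a whole thus held both signs. Genes side by side often shared a sign, but most of these differences were within 2-fold. That of S100a11 moved from -0.17 to -0.01 with the same FPKM sum in every library. Whether neighbours shared signs more often than other genes was not tested.

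**Figure D4:**
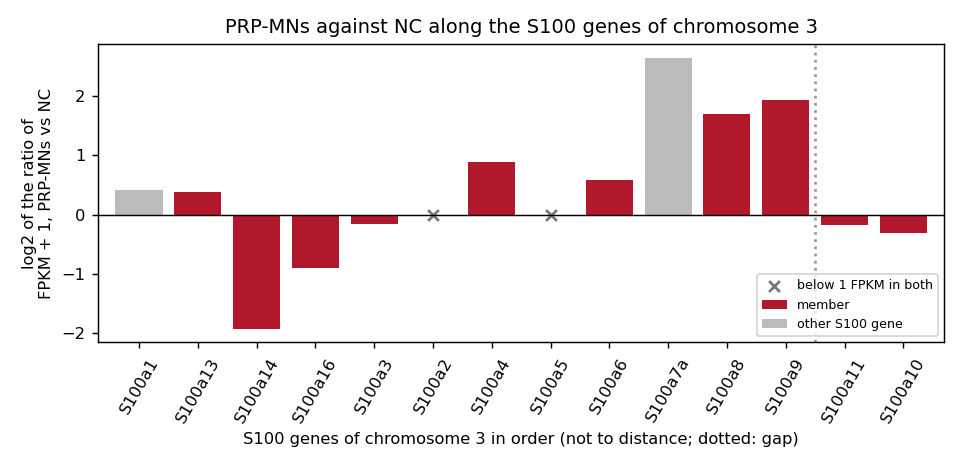
Log2 of the ratio of FPKM + 1 in PRP-MNs against NC for the 14 S100 genes of chromosome 3 in their order, with bars for genes at 1 FPKM or more in at least 1 of the libraries. S100a14 and S100a16 point down at -1.93 and -0.91, and S100a7a, S100a8 and S100a9 point up at 2.65, 1.69 and 1.94. S100a7a was below 1 FPKM in NC and was tested only through PRP-MNs.

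Of 7 other S100 genes in the table, 4 were listed at 0 in every library, namely S100a2, S100a5, S100g and S100z. S100a7a, a relative of the human psoriasin genes and the neighbour of S100a8, was at 0.16 FPKM in NC, 0.84 in PRP, 0.60 in MNs and 6.25 in PRP-MNs. Against NC its log2 difference in PRP-MNs was 2.65, past 2-fold. It was below 1 FPKM in NC, so it could be tested there only through a higher level in PRP-MNs. S100a1, a gene known from muscle, was at 24.0, 38.5, 50.8 and 32.3 FPKM, and S100b, a gene of Schwann cells and melanocytes, at 0.74, 0.69, 1.69 and 0.89 FPKM. S100a1 was at least 2-fold higher in MNs than in NC (1.05).

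Receptors and signalling genes of the alarmins were mostly higher in PRP-MNs. Of 10 listed genes 9 were tested against NC, 6 were at least 2-fold higher and 0 lower, with a median difference of 1.88, beside 17.6%, 11.5% and 0.14 over all genes tested. Cd69, a lymphocyte activation gene and among the 6, was at 0.61 FPKM in NC and was tested only through PRP-MNs, with 7.80 FPKM. Tlr4, the Toll-like receptor that S100A8 binds, was at 1.88 FPKM in NC, 6.97 in PRP, 10.3 in MNs and 20.7 in PRP-MNs. Its co-receptor Cd14 was at 5.04, 18.0, 16.8 and 201 FPKM, and Mcam, a vascular adhesion gene whose protein also binds the alarmins, at 3.70, 11.6, 32.6 and 52.9 FPKM. Of the tested genes within 2-fold of NC, Ly96 differed by -0.22 and Bsg by -0.33 in PRP-MNs, and Emb by 0.97. Ly96 was also below NC in PRP (-0.30) and in MNs (-0.53). Ager, which encodes RAGE, stayed below 0.5 FPKM in every library. In MNs, where the alarmins were lowest, 5 of 8 receptor genes were still at least 2-fold higher than in NC, and in PRP 3 of 9 were, where 15.7% and 7.78% of all genes tested were. All the receptor genes that were higher are also expressed by leukocytes, vessels or fat, and the part of these cells was not tested.

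Partner genes gave no common direction. Of 10 listed genes 9 were tested. In PRP-MNs against NC, 3 were at least 2-fold higher and 0 lower, where 17.6% and 11.5% of all genes tested were. The higher ones were Anxa6 (1.80), Myh9 (1.55) and Anxa11 (1.19). The median was -0.15, against 0.14 over all genes tested. Anxa2, the partner of S100a10, was at 934 FPKM in NC, 845 in PRP, 707 in MNs and 842 in PRP-MNs, and the ratio of S100a10 to it ran from 0.508 in MNs to 0.663 in NC. Anxa1, the partner of S100a11, was at 757, 519, 408 and 391 FPKM. Myh9, the myosin heavy chain that S100A4 binds, was at 26.9, 36.9, 65.9 and 80.4 FPKM, with the 2 microneedle libraries above the others as for S100a4. Padi3, which modifies S100A3 in the hair cuticle, did not reach 0.2 FPKM in any library.

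Genes with the most similar profile were found by the distance between log2 values of the 4 libraries, each gene set to its own mean, among 10361 genes whose highest library held 5 FPKM or more. With 4 libraries such a likeness is weak. S100a9 lay at 0.22 from S100a8, and the nearest other genes were Klrk1, a receptor of killer lymphocytes, at 0.27, the small heat shock gene Hspb8 and the cornified envelope gene Sprr2f at 0.29, Sprr2g at 0.30 and Pdk4 at 0.39. Nearest to S100a4 were Slc17a5 at 0.05, the tubulin gene Tuba1a at 0.07, and Ugdh, Uggt1 and Gmds at 0.08. Nearest to S100a14 were Gm21887 at 0.07, Sh3d21 at 0.08, Sh2d4a at 0.09, the protease gene Pcsk6 at 0.13 and the ligand gene Wnt4 at 0.14. S100a3 had Igfbp5 at 0.16, and Egr1, Cdr2, Thbs2 and Matn2 between 0.24 and 0.26.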

How the data were processed

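Skin RNA of 4 groups of mice was sequenced, with 1 library per group. The NEBNext Ultra kit was used on 1 μg of RNA per library, per the labels' protocols. The deposited table holds FPKM per gene, computed by the authors on GRCm38 according to the submitters' processing notes. Aligner, counter and annotation: not given in the sources used here. Of 22036 Ensembl identifiers 22022 matched GENCODE M21, the source of coordinates and transcript lengths.

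Differences were log2 of the ratio of FPKM + 1, counted at 2-fold among genes at 1 FPKM or more in at least 1 of the 2 libraries. Python 3.11.15 with pandas 2.3.3 was used. The code for the calls was run on simulated data with planted changes well past 2-fold and little noise. That run checks the code only, as it holds no spread between animals. Low values of genes with a single transcript lay within 0.02 of whole fragments in 20.7% to 24.6% of cases at the best step, against 2.99% to 3.10% at the median step. Steps of 1 over 2 fragments gave 23.6% to 28.7% and would put the depth at 31.8 M to 38.65 M. Whole counts were not recovered, so no count test was run.

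The members, the gene lists and the rules were chosen with earlier results of these data known. The named genes were the 10 members, every gene of the receptor, partner and other S100 lists, and the 5 genes nearest in profile to S100a8, S100a4, S100a14 and S100a3. There were also 11 lists of cell type markers. Endothelial genes (4) summed to 12.9, 43.2, 85.2 and 149 FPKM in NC, PRP, MNs and PRP-MNs, Schwann cell genes (4) to 36.0, 116, 113 and 97.2 FPKM, adipocyte genes (4) to 234, 422, 593 and 522 FPKM, and muscle genes (4) to 3756, 6644, 3720 and 5823 FPKM. Alternatives were 3 scalings, 2 pseudocounts and 2 filters.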

Additional observations from a re-analysis of the deposited data

Results flagged for a closer look

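Microneedles went with opposite differences of the alarmins with and without PRP. S100a8 was higher in PRP-MNs than in PRP (0.94 on the log2 scale) and lower in MNs than in NC (-0.60), so that PRP-MNs exceeded the level that the single treatments would give on a log scale by 1.54. For S100a9 the differences were 1.21 and -0.61, and the excess was 1.82. The level that the single treatments would give was 69.7 FPKM for S100a8, where 205 FPKM was measured, and 176 FPKM for S100a9, where 626 FPKM was measured. Each value rests on 1 library per group, and the difference between the pairs was not tested.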

How the results depend on the processing

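Each result was recomputed with the same FPKM sum in every library, with differences centred on the median of all genes tested, without mitochondrial genes, with pseudocounts of 0.1 and 5, without a filter and with a filter at 5 FPKM. Of 339 recomputed differences of single members 324 kept their sign and their side of 2-fold, and none that was past 2-fold changed sign. The 339 include those under the 2 filter settings, which cannot change the difference of a single member. Only the scalings and pseudocounts could move these values. The alarmins minus the other members ranged from 1.97 to 2.04 in PRP-MNs against NC, 2.40 to 2.65 in PRP-MNs against MNs, and -0.61 to -0.39 in MNs against NC. In PRP against NC this value was 0.93 with a pseudocount of 5 and 0.96 with the filter at 5 FPKM, and in PRP-MNs against PRP 0.96 with a pseudocount of 0.1.

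Counts of members past 2-fold are small and moved as follows. In PRP-MNs against NC, 3 members in place of 2 were higher with the same FPKM sum and also without mitochondrial genes, with S100a4 at 1.05 and 1.03. After centring, 2 members were lower in PRP-MNs against NC and 0 higher in MNs against NC. With the same FPKM sum, and also without mitochondrial genes, 0 were lower in MNs against NC, and 2 were higher and 0 lower in PRP-MNs against PRP. With a pseudocount of 0.1, 1 was lower in PRP against NC. With a pseudocount of 5, and also with the filter at 5 FPKM, 1 was higher in MNs against NC and 0 were lower in PRP-MNs against MNs. The same FPKM sum moved the median of all genes from 0.14 to 0.29 in PRP-MNs against NC, from 0.16 to 0.34 in MNs against NC, and from 0.08 to 0.18 in PRP-MNs against PRP.

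Counts over all genes changed most with the pseudocount of 5, which gave 1350 higher and 908 lower genes in place of 2462 and 1607 in PRP-MNs against NC, 433 and 52 in place of 1053 and 197 in PRP, and 934 and 530 in place of 2188 and 991 in MNs. It gave 686 and 478 in place of 1323 and 1039 in PRP-MNs against PRP, and 570 and 464 in place of 997 and 1030 in PRP-MNs against MNs. In PRP against NC a pseudocount of 0.1 gave 1644 and 432, and the filter at 5 FPKM gave 130 lower genes. No paired analysis was possible because each group had 1 library. Depth limits S100a3 alone among the members.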

Other observations

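The makeup of the S100 transcripts differed between libraries more than their total did. The 10 members summed to 3271 FPKM in NC, 2664 in PRP, 2222 in MNs and 3240 in PRP-MNs, or 0.635%, 0.533%, 0.495% and 0.703% of all FPKM. PRP-MNs and NC thus had nearly the same total. The alarmins were 6.89% of that total in NC, 14.1% in PRP, 6.64% in MNs and 25.6% in PRP-MNs, and the epidermal genes S100a14 and S100a16 31.2%, 23.9%, 24.9% and 11.6%. The mesenchymal genes S100a4 and S100a6 made up 11.6%, 16.6%, 25.3% and 18.9%, and the annexin partners between 41.9% in MNs and 49.8% in NC. S100a8 exceeded S100a14 1.27 times in PRP-MNs, whereas in NC it was at 0.102 of it.

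S100a14 in PRP-MNs was at 161 FPKM, and the single treatments together would give 160 FPKM on a log scale, a departure of 0.00 that was -0.08 with the same FPKM sum. S100a11 departed by 1.12 and S100a10 by 0.89, the largest departures among the members after the alarmins. These values were chosen after the data were seen and have no error.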
